A study of Homo sapiens with 24 samples.

Results

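Wild-type human embryonic stem cells that had grown for 48 h beside cells with a light-driven Wnt receptor were compared between illuminated and dark co-cultures, across all measured genes. The samples were chosen by their labels alone: the GFP-positive cells sorted from co-culture, with 3 libraries from light and 3 from dark, out of 24 libraries of the series. All libraries come from H9, an established human embryonic stem cell line. The engineered partner cells carried a fusion of the plant protein Cry2, whose molecules gather into clusters when lit, with the intracellular part of the Wnt co-receptor LRP6, followed by a 2A peptide and mCherry, and a puromycin resistance gene (PuroR). The wild-type cells carried no Cry2 fusion but did carry eGFP and a neomycin resistance gene, in light and dark alike. Both kinds of cell were seeded 1:1 in E8 medium, kept in the dark or under light at 0.8 µW/mm² for 48 h, and separated by fluorescence-activated sorting into mCherry-positive and GFP-positive cells. Each biological replicate pooled 2 to 3 wells. Wild-type monocultures in light and dark (wt, 3 libraries each) and the sorted mCherry cells (3 libraries each) serve below as comparison groups. The comparison asks how unengineered cells respond to neighbours in which Wnt signalling has been switched on.

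Wnt ligands bind Frizzled receptors and LRP5 or LRP6, which keeps beta-catenin from being degraded so that it can act with TCF and LEF factors on target genes. In the early embryo WNT3, BMP4 and NODAL act in a chain that sets up the primitive streak, where TBXT, EOMES and MIXL1 come on. All 3 pathways work through secreted ligands, so that a cell can respond to ligands made by its neighbours. BMP ligands act through SMAD1, SMAD5 and SMAD9 and switch on ID1 to ID4 and MSX2, and NODAL acts through SMAD2 and SMAD3 and switches on its own gene and its LEFTY inhibitors.

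In light, the GFP cells held more RNA of WNT3, of BMP target genes (ID1 to ID4, MSX2), of NODAL and its relative GDF3, and of the streak factors EOMES and TBXT, while the core pluripotency genes stayed high. Of 19436 genes tested, 465 were higher and 429 lower in light (limma, adjusted p below 0.05), that is 4.6% called, 2.39% higher and 2.21% lower. On the log2(value + 1) scale, 133 genes rose and 183 fell at least 2-fold, and 46 rose and 64 fell at least 4-fold. The median change over all genes was -0.01. For 893 of the 894 genes called, the light and dark libraries did not overlap, the exception being AC027601.4, named here after its values were seen. The calls were made on these same libraries, so this count adds no support to them. The share without overlap over all genes tested was not counted. Protein-coding genes made up 429 of the genes that rose and 355 of those that fell, and long intergenic or antisense RNAs 20 and 51. The replicates came from pooled wells of 1 cell line, so p-values measure the spread between cultures. That spread was pooled over GFP and mCherry libraries, which were sorted from the same co-cultures but fitted as independent. Between 31884623 and 56639833 reads per GFP library were assigned to genes, the shallowest being light c (letters a to c name a group's libraries by the order of their columns). Replicate libraries differed beyond counting noise, with chi-square per degree of freedom from 7.472 to 27.02 in light and from 6.354 to 15.54 in dark, and light a stood farthest from the other light libraries. The counts moved with the libraries fitted: leaving out 1 GFP library gave 255 to 419 genes higher and 215 to 362 lower, with fewer than 300 higher without light b, light c, dark b or dark c and fewer than 300 lower without any but light a. The 6 GFP libraries alone gave 672 and 684, and leaving out 1 mCherry library gave 391 to 788 and 333 to 775, most without mCherry light a.

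The construct reads went with the sort labels. In GFP cells eGFP stood at 13259 ± 1245 normalised reads in light and 13540 ± 740 in dark (mean ± SD, n = 3 each; reads divided by 1 factor per library), against 23.3 ± 7.88 in mCherry light and 4.85 ± 1.23 in mCherry dark. The Cry2 fusion stood at 422, 358 and 408 normalised reads in GFP light and at 349, 398 and 364 in GFP dark (exact two-sided permutation p = 0.3, where 0.1 is the smallest possible), and 57087 ± 4646 in mCherry light. Part of LRP6 is in the fusion, so endogenous LRP6 transcripts may also give reads there. In wt monocultures, which had no engineered cells, the fusion feature stood at 427, 393 and 325 in dark and at 310, 219 and 286 in light. LRP6 itself stood at 3868, 3137 and 3104 in light and 3422, 3614 and 3459 in dark (log2 change -0.06 ± 0.08 SE, limma adjusted p = 0.799).

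PuroR, which only the engineered cells carry, gave 4, 2 and 0 reads, before normalisation, in the GFP light libraries and 2, 0 and 8 in the dark ones. Its mean level in GFP light was 0.0511% of that in mCherry light. With 6 reads in all, the upper end of the exact 95% Poisson interval is 13.1 reads, or 0.131% of the mCherry light level, which covers counting error only. This limit rests on PuroR alone. The fusion feature was higher in GFP light (422, 358 and 408) than in wt light (310, 219 and 286), while the dark groups overlapped. No limit was drawn from that feature, so 0.131% may be too low. A set of 39 genes was high in mCherry light (mean of at least 1000) and below 10 in mCherry dark, GFP dark and wt dark. In GFP light these genes stood at a median of 0.0582% of their mCherry light level, 36 of the 39 were under 1%, and 2 had no reads. The 7 of them that passed the test in GFP cells were EVX1, HOXB1, HOXB3, WNT8A, SP5, HAGLR and EOMES. EOMES had the highest share, 4.21%. EVX1, HOXB1 and HOXB3 were called at shares under the 0.131% limit, and the part of engineered-cell RNA in these values was examined only by the subtraction that follows. The comparison was repeated after 0.131% of each gene's mCherry light mean had been taken off every GFP light library. Negative results were set to 0, and the step was added after the data were seen. It takes off the upper limit from PuroR, while the median share of the 39 genes was 0.0582%. For many of them it therefore removes more than the whole GFP light level. A lost call after it is not a measure of carried-over RNA, and a turned sign is not read as a fall. Then 449 genes were higher and 443 lower, HOXB3 came to a log2 change of 0.00, and for the genes described below a changed call or sign is given beside the gene.

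**Figure D1:**
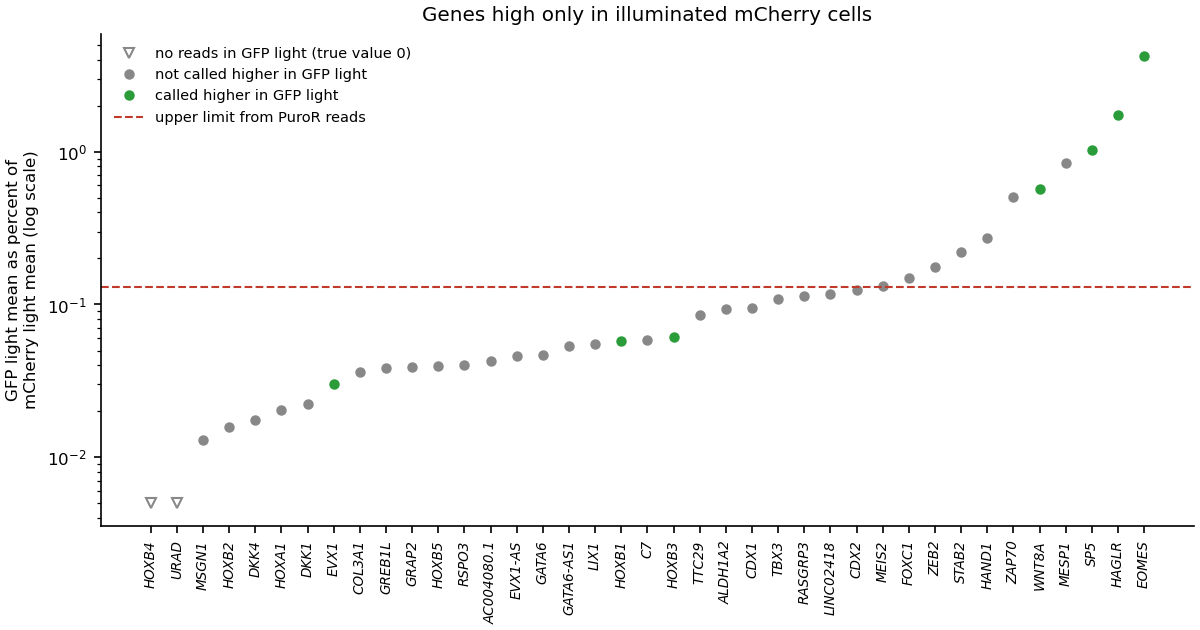
GFP light mean as a percent of the mCherry light mean (log scale) for the 39 genes that were high only in illuminated mCherry cells, in rank order. The dashed line marks the 0.131% that the PuroR reads allow; EOMES, HAGLR, SP5 and WNT8A, called higher in GFP light, lie above it, while EVX1, HOXB1 and HOXB3 lie below it.

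Among Wnt genes, the ligand WNT3 rose most clearly and the feedback gene AXIN2 did not pass the test. WNT3 (GRCh38 chromosome 17, 46762506 to 46833154) stood at 1098, 1146 and 947 normalised reads in light and at 142, 125 and 145 in dark. Every light library lay far above every dark one, a 7.75-fold rise (log2 change 2.94 ± 0.12 SE, limma adjusted p = 5.82e-09). The rise equals 29.7% of the WNT3 level in mCherry light. Of 15 Wnt ligand and secretion genes tested, WNT3 and WNT8A were called higher and none lower, with a list median of -0.17. WNT8A, a ligand of the posterior embryo, had 25.6, 17.0 and 6.74 in light against 0, 0 and 3.58 in dark (limma adjusted p = 0.0169). Its call was lost without light a, light b, dark a or dark b (adjusted p up to 0.0867). It no longer passed once engineered-cell RNA was subtracted (adjusted p = 0.0646). WNT3A stood at 17.3, 17.9 and 2.69 against 26.6, 8.08 and 17.9 and was not called (limma adjusted p = 0.639).

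Of 15 feedback and target genes of beta-catenin, 5 were called higher and none lower, with a list median of 0.27 against -0.01 over all genes. SP5, a transcription factor directly downstream of beta-catenin (chromosome 2, 170715351 to 170718078), stood at 119, 143 and 160 in light and at 0.885, 5.39 and 5.01 in dark, 37.4-fold higher (limma adjusted p = 8.57e-05). The rise was 0.99% of the mCherry light level, and the call held after the subtraction (adjusted p = 0.000141). NOTUM, a secreted enzyme that inactivates Wnt proteins, had 73.7, 53.7 and 75.5 in light against 23.9, 18.0 and 12.9 in dark, 3.71-fold higher. CCND1, the cyclin D1 gene, rose 1.75-fold from 4857, 4804 and 4643 in dark to 8286, 8328 and 8393 in light, and TCF7, a TCF factor and itself a target, rose 1.56-fold. LEF1, the other target called, stood at 26.3, 33.9 and 37.7 against 20.4, 18.9 and 15.7 (limma adjusted p = 0.0319). Its rise was 0.104% of the mCherry light level, and after the subtraction the log2 change was -0.38 (adjusted p = 0.534). The LEF1 call was also lost in the 6 GFP libraries alone (adjusted p = 0.199) and without light b, light c, dark b, dark c or mCherry light b (up to 0.134). AXIN2, the most widely used readout of beta-catenin, stood at 505, 495 and 613 in light and at 541, 598 and 535 in dark, so that the groups overlapped (log2 change -0.06 ± 0.18 SE, limma adjusted p = 0.93). DKK1, a secreted antagonist, had 6.01, 8.48 and 21.6 against 1.77, 2.69 and 2.15 and was not called (limma adjusted p = 0.0797). The subtraction took off more than its GFP light values, and the log2 change of -1.67 that it gave (adjusted p = 0.0844) is not read as a fall.

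Secreted Wnt antagonists showed calls in both directions, 3 of 10 tested higher and 1 lower. SFRP1, which binds Wnt ligands, fell by 2.03-fold, from 27735, 28360 and 26727 in dark to 13421, 13668 and 13627 in light (limma adjusted p = 2.91e-07). CER1, an inhibitor of NODAL, BMP and Wnt, stood at 201, 141 and 151 against 46.9, 49.4 and 70.8, 2.95-fold higher, and FRZB rose 1.89-fold, a call lost without any 1 GFP library but light a (adjusted p up to 0.143). The promoters of SP5 and MIXL1 are shown because both genes rose and because the letters CTTTGAT, a form of the TCF/LEF element, occur in their 250 bases before the start. That motif was searched on both strands and was found in 2.26% of 35116 RefSeq windows of the same length. Of the called beta-catenin targets, 3 had a window, and SP5 was the 1 of them with these letters. MIXL1 is from the streak list, and its rise did not pass after the subtraction (limma adjusted p = 0.0977). The match, in capitals, is a description of sequence and not a tested site. The SP5 stretch lies at chr2:170715188-170715274 (GRCh38.p14, plus strand) and the MIXL1 stretch at chr1:226223548-226223634 (plus strand).
SP5: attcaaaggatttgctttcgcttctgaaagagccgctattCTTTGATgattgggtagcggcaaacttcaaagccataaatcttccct
MIXL1: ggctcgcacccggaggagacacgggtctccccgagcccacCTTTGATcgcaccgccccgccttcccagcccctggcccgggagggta

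BMP target genes rose together in the GFP cells: 7 of 9 were called higher and none lower, and the list median of 2.15 was the largest of the signalling lists. In wt monocultures the list median was 0.47 (fit of all 24 libraries), and 1 member was called. The summed level of the 9 genes was 10579 to 12240 in wt light and 7771 to 8195 in wt dark. In GFP cells it was 35713 to 42269 in light and 7559 to 8220 in dark. For 7 members the light effect was called different from that in wt monocultures. ID1, an inhibitor of helix-loop-helix factors (chromosome 20, 31605283 to 31606515), stood at 11387, 12580 and 14523 in light and at 1780, 1490 and 1420 in dark. The groups did not overlap, and the rise was 8.21-fold (log2 change 3.04 ± 0.38 SE, limma adjusted p = 0.000206). ID3 stood at 17687, 20075 and 21613 against 4631, 4324 and 4372, 4.45-fold higher (limma adjusted p = 6.02e-06). ID2 and ID4, from the same family, rose 5.22-fold and 6.12-fold. MSX2, a homeobox factor, went from 7.97, 7.18 and 12.9 in dark to 195, 176 and 162 in light, 19-fold higher (limma adjusted p = 1.86e-05). The inhibitory SMAD genes SMAD6 and SMAD7, which feed back on the pathway, rose 2.79-fold and 2.54-fold. The list's other members, MSX1 and SMAD9, were not called (limma adjusted p = 0.0718 and 0.29). After the subtraction the MSX1 log2 change was -2.41 (adjusted p = 0.00345), a turned sign that is not read as a fall. For ID1, ID2 and ID4 the GFP rise was larger than the whole level in mCherry light, at 241%, 128% and 291% of it. The ID1 level in mCherry light was uneven (2223, 2320 and 9459), and without mCherry light c its share was 496%.

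Of the BMP ligands, BMP4 rose modestly and BMP2 fell. BMP4 stood at 246, 254 and 326 in light and at 137, 162 and 181 in dark, 1.72-fold higher (limma adjusted p = 0.00646), a rise of 0.663% of the mCherry light level. BMP2 fell by 2.37-fold, from 141, 91.6 and 104 to 44.4, 57.5 and 40.4 (limma adjusted p = 0.00201), although it rose in the mCherry cells (log2 change 6.06). Of the antagonists, BAMBI, a decoy receptor, rose 3.43-fold from 726, 587 and 809 to 2283, 2333 and 2662. FST, which traps activin and BMP, rose 2.12-fold and GREM1 2.98-fold at low levels (26.3, 19.8 and 21.6 against 6.2, 3.59 and 12.9). The GREM1 call was lost without any 1 GFP library but dark c, without mCherry light b and in the GFP libraries alone (limma adjusted p up to 0.157). In all, 4 of 12 BMP ligands and antagonists rose and 1 fell. The 6-letter GC-rich SMAD element GGCGCC was in none of the windows of the 7 BMP targets called and in 16.4% of all windows, which says only that these letters are not in those 250 bases. A second form, GGAGCC, was in the windows of 5 of the 7 (ID1, ID3, ID4, SMAD6 and SMAD7) and in 30.6% of all windows. The palindrome GTCTAGAC was in that of SMAD6 and in 0.182% of all, and the single box CAGACA in none of the 7 and in 13.6% of all.

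**Figure D2:**
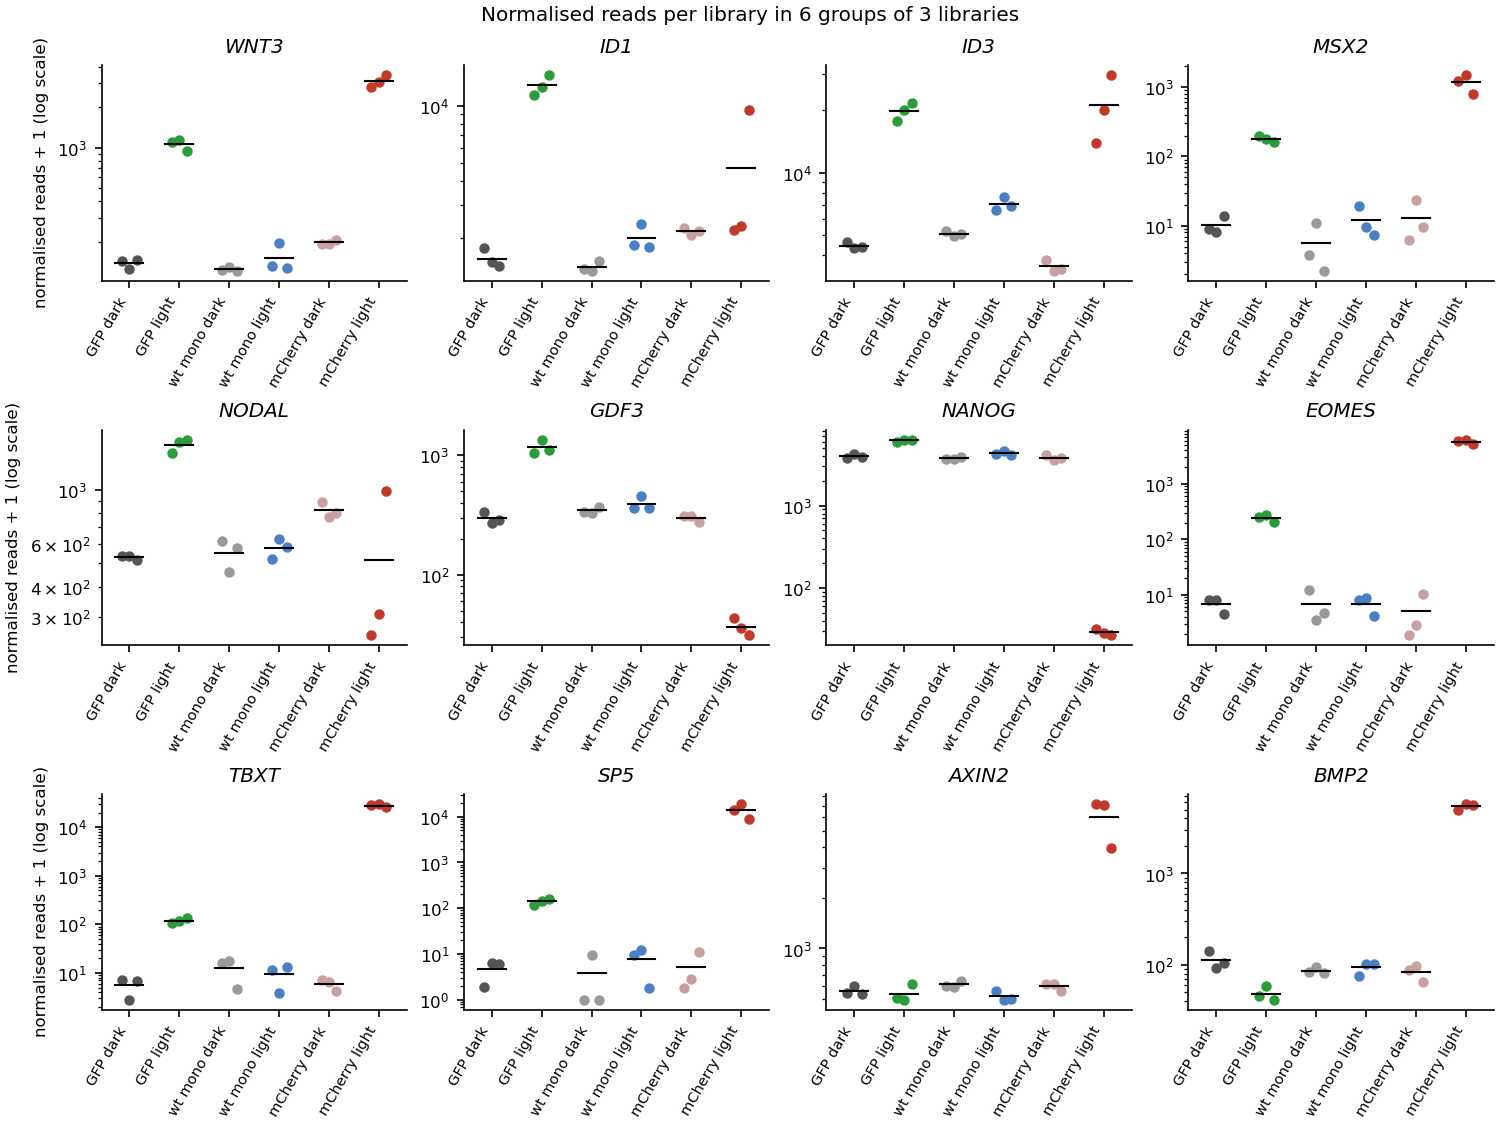
Normalised reads plus 1 (log scale) for 12 genes in GFP cells, wt monocultures and mCherry cells, dark and light, with 1 point per library and a line at the mean of 3. WNT3, ID1, ID3, MSX2, NODAL and GDF3 are higher in every GFP light library than in any wt monoculture library, while for AXIN2 the GFP light points lie on both sides of those of GFP dark.

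Genes of the NODAL and TGF-beta branch rose as well, with 6 of 13 members of the list higher, 1 lower and a median of 0.72. NODAL (chromosome 10, 70432315 to 70447951) stood at 1412, 1571 and 1602 in light and at 533, 534 and 514 in dark. All 3 light libraries lay over the dark ones by a wide gap, and the fold was 2.9 (log2 change 1.53 ± 0.34 SE, limma adjusted p = 0.0163). The call was lost, at limma adjusted p of 0.0579 to 0.0682, when any 1 GFP library other than light a was left out, and it was 4.87e-08 in a fit of the 6 GFP libraries alone. The mCherry light libraries, which share the spread estimate, stood at 252, 306 and 981, and without mCherry light c the NODAL adjusted p was 2.95e-07. GDF3, a NODAL relative of pluripotent cells, rose 3.95-fold from 330, 271 and 283 to 1038, 1348 and 1106 (limma adjusted p = 3.53e-06). TGFB1 rose 2.07-fold, from 370, 299 and 272 to 593, 654 and 702, and the TGF-beta feedback genes PMEPA1 and SKIL rose 1.85-fold and 1.59-fold. TDGF1, the NODAL co-receptor, fell from 17903, 19121 and 20488 to 16337, 14095 and 14724 (log2 change -0.35, limma adjusted p = 0.0485). The TDGF1 call was lost without any 1 GFP library but light a and the SKIL call without any 1 GFP library (adjusted p up to 0.211 and 0.155), and both without any 1 mCherry dark library. SKIL also did not pass after the subtraction (adjusted p = 0.051). LEFTY1, an inhibitor that NODAL switches on, stood at 647, 684 and 695 in light and at 351, 404 and 342 in dark. These groups did not overlap, yet the change was not called in the fit of all 12 co-culture libraries (limma adjusted p = 0.506), while a fit of the 6 GFP libraries alone gave 0.000107 and the fit without mCherry light c gave 0.00226. LEFTY2 stood at 679, 711 and 713 against 585, 591 and 607 (limma adjusted p = 0.827). LEFTY1 and LEFTY2 are close copies, so the split of reads between them is uncertain.

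FGF and Notch genes changed in both directions. Of 19 FGF/ERK genes, 6 rose and 2 fell. FGF8, a ligand of the streak, stood at 94.7, 111 and 106 in light against 17.7, 7.18 and 26.5 in dark, 6.08-fold higher. FGFR3 rose 2.05-fold from 1128, 1121 and 1043 to 2266, 2295 and 2181, FGF4 rose 2.88-fold at lower levels, and the ERK feedback inhibitors SPRY2 and SPRY1 rose 1.6-fold and 1.52-fold. FGF2, the ligand that supports self-renewal, fell by 1.55-fold from 4128, 4081 and 4242 to 3101, 2291 and 2643, and ETV5, an ERK target, by 1.37-fold. Among 14 Notch genes, the target HEY1 rose 4.28-fold (317, 296 and 243 against 56.6, 70.0 and 73.0), with NOTCH3 and the ligand JAG2 also higher. The Delta ligands fell: DLL1 stood at 135, 96.1 and 102 against 275, 301 and 241, DLL3 at 216, 266 and 249 against 651, 543 and 574, and DLL4 at 0.752, 3.77 and 4.04 against 21.2, 23.3 and 15.7. The ETV5 call was lost without any 1 GFP library (limma adjusted p = 0.0619 to 0.167) or without mCherry dark c (0.0589), the JAG2 call without light b, light c, dark b or dark c (up to 0.0921), the FGF2 call without light b (0.0571) and the FGF4 call without dark c (0.0574).

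Streak factors rose in the GFP cells to levels that remained a small share of those in the engineered cells. EOMES, a T-box factor of streak and endoderm (chromosome 3, 27715949 to 27722711), stood at 253, 271 and 207 in light and at 7.08, 7.18 and 3.58 in dark, 41-fold higher (limma adjusted p = 8.96e-06). The rise was 4.11% of the mCherry light level, and the call held after the subtraction (log2 change 5.13, adjusted p = 1.09e-05). TBXT, the brachyury gene (chromosome 6, 166157656 to 166168700), stood at 108, 114 and 135 against 6.2, 1.8 and 5.72, 26-fold higher (limma adjusted p = 8.7e-07), a rise of 0.411% of the mCherry level. After the subtraction its log2 change was 4.01 (adjusted p = 3.91e-06). MIXL1 went from 50.4, 48.5 and 45.8 to 156, 143 and 171, 3.25-fold higher, but its rise was 0.162% of the mCherry level and it no longer passed after the subtraction (log2 change 0.49, adjusted p = 0.0977). EVX1 had no dark reads and 2.26, 4.71 and 2.69 in light, 0.0303% of the mCherry level, and its log2 change was 0.00 after the subtraction (adjusted p = 1). In all, 4 of 8 streak and mesendoderm markers were called, with a median of 1.51. The summed level of those 8 was 580 to 639 in GFP light, 123 to 152 in GFP dark and 116179 to 132370 in mCherry light.

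Markers of later cell types were mostly not called. Of 8 lateral and cardiac mesoderm genes tested, the VEGF receptor gene KDR rose 1.22-fold from 4927, 5263 and 4994 in dark, and the apelin receptor gene APLNR stood at 60.1, 109 and 59.3 against 33.6, 5.39 and 26.5. The APLNR rise was 0.0329% of the mCherry level, and the subtraction took off more than its GFP light values. The log2 change of -4.19 that it gave (adjusted p = 4.85e-05) is not read as a fall. HOXB1, the 1 call among 10 paraxial and posterior mesoderm genes, had 2.26, 3.77 and 8.08 in light and a log2 change of -0.57 after the subtraction (adjusted p = 0.511). Of 4 definitive endoderm genes tested, HHEX was called (37.6, 31.1 and 32.3 against 0.885, 4.49 and 9.3). SOX17 had no reads in any GFP library, and FOXA2 stood at 15, 15.1 and 5.39 against 13.3, 35.9 and 15 (limma adjusted p = 0.561). TFAP2A, a factor of surface ectoderm and neural crest, had no reads in dark and 16.5, 20.7 and 16.2 in light (limma adjusted p = 0.000485), without a call in mCherry cells (adjusted p = 0.54). Among 5 amnion and surface ectoderm genes tested, GATA2 rose 9.24-fold and GATA3 6.74-fold, to 81.2, 64.0 and 68.7 and to 77.4, 66.9 and 43.1, while GABRP fell by 6.5-fold and the keratin gene KRT7 by 1.63-fold. The summed level of the 7 genes of that list was 562 to 631 in light and 1074 to 1225 in dark. SOX3, the 1 neural ectoderm gene called of 5, fell by 2.42-fold from 1354, 1248 and 1141. For 12 markers of illuminated engineered cells, 7 were called and the sum was 877 to 1024 in GFP light, 238 to 305 in GFP dark and 367473 to 425315 in mCherry light. Leaving out 1 GFP library ended the calls of KRT7 and SOX3 (any library), KDR (any but light a), HOXB1 (light b, light c, dark a or dark c), HHEX (dark a), APLNR (light b) and GATA3 (dark b), with limma adjusted p from 0.0505 to 0.191. The KRT7 call was also lost without any 1 mCherry dark library and the SOX3 call without mCherry dark c (0.0506 to 0.0723).

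Core pluripotency genes stayed at high levels. NANOG stood at 5989, 6361 and 6229 in light and at 3833, 4251 and 3934 in dark, 1.55-fold higher (limma adjusted p = 0.000757), and PRDM14 and the methyltransferase gene DNMT3B rose 1.44-fold and 1.32-fold. POU5F1 stood at 99298, 105164 and 116639 against 94453, 88278 and 91289 (limma adjusted p = 0.379), and SOX2 at 7439, 7436 and 7437 against 8837, 8181 and 8692 (adjusted p = 0.283). Of 15 genes of the list, 3 rose and TDGF1 fell. NANOG and POU5F1 have near-identical pseudogene copies, so some reads may be split. The adhesion gene CDH1 (E-cadherin) stood at 14191, 15154 and 14818 against 11926, 12405 and 11653 and was not called (limma adjusted p = 0.0823). It was called higher in 5 of 23 other fits, among them the GFP libraries alone (limma adjusted p = 0.0107) and without mCherry light c (0.0217). CDH2 (N-cadherin) rose 1.41-fold to 3437, 3511 and 3645. FN1, the fibronectin gene, rose 1.53-fold. These were the 2 calls among 12 mesenchymal genes, none of which fell. Of 17 epithelial junction genes, GRHL2 and DSP rose while CLDN4 and PKP2 fell, and 5 of 20 extracellular matrix genes rose, namely TNC, FBN2, COL6A2, LAMA1 and LAMB1, at 1.24-fold to 1.57-fold. Leaving out 1 GFP library ended the calls of GRHL2 (any), PRDM14 and LAMB1 (any but light a), DSP (any but dark a), PKP2 (any but light c), COL6A2 (light b, light c, dark b or dark c), DNMT3B (light b, light c or dark c), LAMA1 (light b, dark b or dark c), TNC (light c or dark a) and CLDN4 (dark a), with limma adjusted p from 0.0521 to 0.191. The calls of GRHL2, PRDM14, LAMB1, DSP and COL6A2 were also lost without any 1 mCherry dark library (0.0512 to 0.0793).

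Genes of the low-oxygen and glycolysis programme rose, 8 of 20 with none lower and a median of 0.29. PDK1, a pyruvate dehydrogenase kinase gene, stood at 5235, 4667 and 5085 in light and at 1549, 1706 and 1644 in dark, 3.06-fold higher (limma adjusted p = 2.73e-07). PFKFB4, which drives glycolysis, rose 2.66-fold from 701, 646 and 618 to 1577, 1779 and 1865. The glucose transporter gene SLC2A1 and the mitophagy gene BNIP3 rose 1.94-fold and 1.93-fold, the oxygen-sensor gene EGLN3 1.8-fold, and PFKFB3, LDHA and PGK1 1.5-fold, 1.5-fold and 1.47-fold. The PGK1 call was lost without light c or any 1 dark library (adjusted p up to 0.0945). The core hypoxia response element ACGTG, searched on both strands, occurred in the 250 bases before the start of 5 of these 8 genes and in 18.5% of all windows. Read from the opposite strand it is CACGT, and both overlap where the letters CACGTG occur. The stretches around the match nearest the start are shown because these genes rose together; capitals mark each ACGTG or CACGT. All are from RefSeq on GRCh38.p14: PDK1 at chr2:172556042-172556089 (plus), BNIP3 at chr10:131982012-131982096 (minus), LDHA at chr11:18394450-18394534 (plus), PGK1 at chrX:78104025-78104109 (plus) and PFKFB3 at chr10:6202785-6202869 (plus). The motif was 1 of 9 searched, and it was kept after the matches were seen.
PDK1: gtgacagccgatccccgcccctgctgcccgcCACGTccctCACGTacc
BNIP3: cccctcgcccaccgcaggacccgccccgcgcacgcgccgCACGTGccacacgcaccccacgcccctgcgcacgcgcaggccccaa
LDHA: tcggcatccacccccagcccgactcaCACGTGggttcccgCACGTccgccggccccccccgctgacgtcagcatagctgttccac
PGK1: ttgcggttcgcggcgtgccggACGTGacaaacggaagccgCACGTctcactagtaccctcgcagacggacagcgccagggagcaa
PFKFB3: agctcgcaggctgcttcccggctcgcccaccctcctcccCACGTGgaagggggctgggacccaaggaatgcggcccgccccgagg

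Among stress and growth lists, p53 targets had only lower calls and immediate early genes only higher ones. Of 15 p53 targets, 3 fell and none rose: GDF15, a stress cytokine, fell by 3.68-fold from 681, 500 and 502 to 101, 176 and 181, RRM2B by 2.01-fold and the cell cycle inhibitor gene CDKN1A by 1.83-fold, from 2426, 2158 and 2250 to 1297, 1215 and 1231. The summed level of the 16 immediate early genes was 23403 to 27087 in light and 18685 to 22920 in dark. Of these genes FOS rose 2.57-fold (1374, 1088 and 1928 against 744, 504 and 461), JUN 1.89-fold and IER3 1.66-fold. HSPA8, a constitutive chaperone, rose 1.47-fold as the 1 call of 10 heat shock genes, and HSPA5 and HERPUD1, of the unfolded protein response, rose 1.32-fold and 1.31-fold as 2 of 13. The heat shock list had a median of 0.22 in GFP cells and 0.31 in wt monocultures (fit of all 24 libraries). No heat shock gene was called for a light effect differing between those cultures. Of 19 proliferation genes, CCND2 rose 1.26-fold and BUB1 fell by 1.29-fold. The clock gene BHLHE40 rose 2.97-fold (629, 634 and 383 against 188, 155 and 212) as the 1 call of 13 clock, cold and light response genes. EFNB2 was the 1 call of 19 Eph and ephrin genes (1.83-fold higher), AJUBA of 10 YAP/TEAD targets (1.49-fold lower) and DHRS3 of 10 retinoic acid genes (2.67-fold lower, from 476, 498 and 409). Over all genes 4.6% were called, so a single call in a list of this size is not read as a result about that list. No member passed among 7 Hedgehog, 9 oxidative stress, 9 interferon response and 10 naive pluripotency or germ cell genes tested with limma. At unadjusted p below 0.05 these lists had 3, 1, 1 and 2 members, edgeR called 0, 0, 1 and 0, and DESeq2 0, 0, 1 and 2. Leaving out 1 GFP library ended the calls of HERPUD1 (any but light c), BUB1 (light b, light c, dark b or dark c), FOS (light c, dark b or dark c), CCND2 (light b or dark c), JUN (dark c) and HSPA5 (light b), with limma adjusted p from 0.0546 to 0.138.

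**Figure D3:**
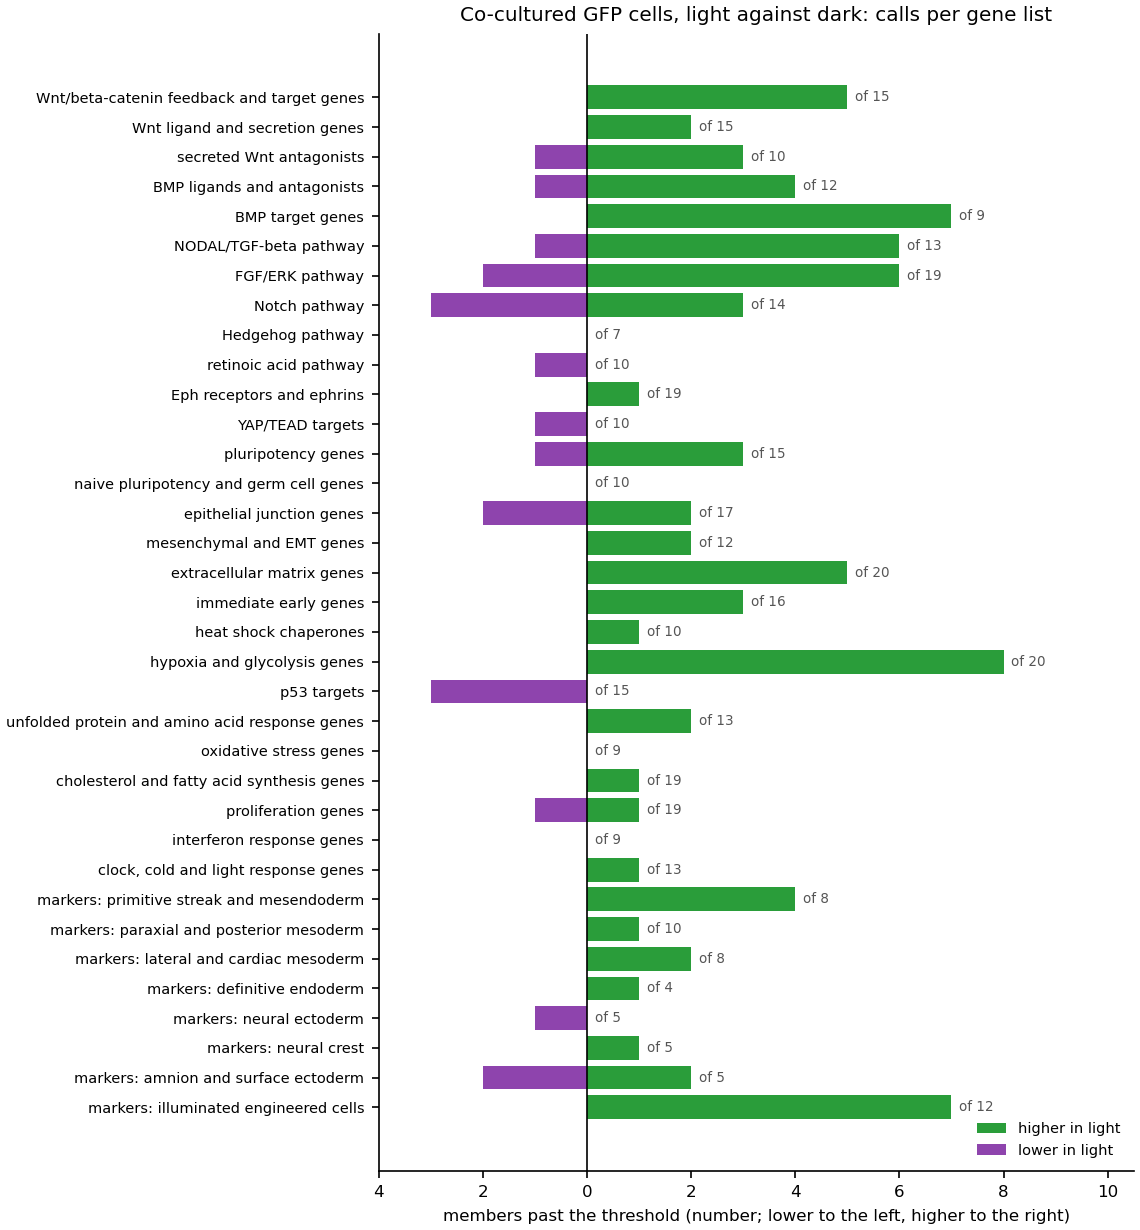
Number of members of each gene list past the threshold in GFP light against dark, with genes higher in light to the right and lower to the left; the grey text gives the number tested. BMP target genes (7 of 9) and hypoxia and glycolysis genes (8 of 20) have many calls and none to the left, and p53 targets have 3 calls, all to the left.

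Outside the lists, the 12 largest falls included genes well expressed in dark. NPTX1, a neuronal pentraxin gene, fell by 39.1-fold, from 1080, 1204 and 1128 in dark to 33.8, 38.6 and 14.8 in light (limma adjusted p = 8.96e-06). PRICKLE1, of the planar cell polarity pathway, fell by 8.16-fold from 2212, 2174 and 1955 to 241, 243 and 294 (adjusted p = 7.46e-08). GADD45G, a stress-response gene, fell by 11-fold (33.1, 34.9 and 36.4 against 361, 400 and 385), CUZD1 by 11.4-fold and FOXJ1, a factor for motile cilia, by 6.88-fold. Lower in level, the cytokine gene IL17C had 1.5, 1.88 and 0 in light against 74.3, 59.3 and 62.2 in dark, and ATP10B, BNC1, MAP1LC3C, ISLR2, CXCL14 and the pseudogene ECEL1P1 fell by 6.96-fold to 22.8-fold. Among the 12 largest rises, SEZ6L, SAMD11, LINC02593, CDH6 and GLIPR1L1 have not yet been described. CDH6, the K-cadherin gene, stood at 444, 401 and 352 against 31.0, 32.3 and 21.5, 14.1-fold higher. SEZ6L rose 21.4-fold to 235, 307 and 256. SAMD11 rose 15.7-fold to 217, 170 and 166, and the long RNA LINC02593 from 0.885, 1.8 and 0 to 73.7, 63.1 and 39.1. Both lie next to each other on chromosome 1, between 916865 and 944581.

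The light effect in co-cultured GFP cells was then set against that in wild-type monocultures, which had no engineered neighbours. In a fit of all 24 libraries (20322 genes), light changed 18 genes in wt monocultures, 7 higher and 11 lower (0.0886% called; 2286 at unadjusted p below 0.05). The same fit called 1222 genes in GFP cells, 591 higher and 631 lower. Wt light 2 stood apart from its replicates. On the chi-square scale used above, it differed from light 1 by 56.79 and from light 3 by 46.7, while light 1 and light 3 differed by 5.66. A wt count without that library is not given here, so the 18 calls are not read as a lack of light effect. The light effect differed between the cultures for 467 genes (2.3% called), 287 with a higher and 180 with a lower effect in the GFP cells. Of the 465 genes higher in GFP light, 237 also differed from wt monoculture in the same direction. Their whole set had a median log2 change of 0.67 in GFP cells and 0.02 in wt monocultures, and 2 of them, DNAJA1 and ID2, were themselves called in wt monoculture. Of the 429 lower genes, 150 differed in the same direction, with medians of -0.85 and -0.11, and 1, PRUNE2, was called in wt monoculture. Both sets were chosen by their change in these GFP libraries, which enlarges the GFP medians. The counts of 237 and 150 use the same libraries again. Neither is independent support for a difference from wt monoculture. DNAJA1 and PRUNE2 are named after their values were seen. In wt monocultures the light libraries held 45763662 to 54707558 assigned reads and the dark ones 30693033 to 34291124. With log2 assigned reads as a term, 228 genes had a higher and 158 a lower effect in GFP cells, among them 127 of the 287 (44.3%) and 92 of the 180 (51.1%). Leaving out GFP light b, light c, dark b or dark c, or wt dark 2, lowered the counts to 166 to 185 higher, and all of these but light b lowered the other count to 105 to 119. Without wt light 2 the counts were 205 higher and 135 lower.

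Single genes showed the same contrast. WNT3 changed by 0.26 in wt monocultures, and the difference of light effects was 2.69 ± 0.20 (limma adjusted p = 5.82e-09). For ID1 the wt change was 0.49 and the difference 2.55 ± 0.42 (adjusted p = 0.00069), and for ID3 they were 0.47 and 1.68 (adjusted p = 1.57e-05). EOMES differed by 5.00 (adjusted p = 0.000175), TBXT by 4.92 (adjusted p = 2.67e-05) and NODAL by 1.47 (adjusted p = 0.0421). SP5 (difference 3.6, adjusted p = 0.0851), NANOG (0.43, adjusted p = 0.212) and BMP4 (0.69, adjusted p = 0.114) were not shown to differ from wt monoculture. The largest positive differences were those of LINC02593, EOMES, TFAP2A, TBXT and SEZ6L, and the largest negative ones those of IL17C, NPTX1, CUZD1, BNC1 and ATP10B. In wt monocultures light and depth coincide, and the sort was done only in co-culture, so those parts of the difference cannot be told apart from the neighbours.

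**Figure D4:**
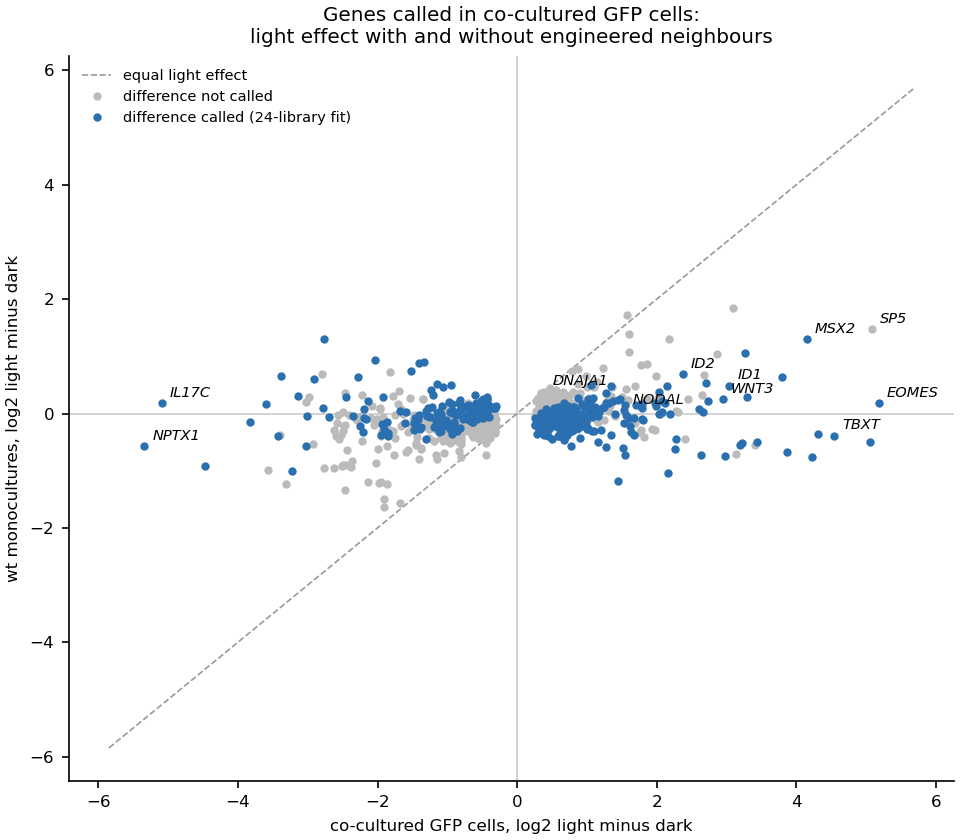
Log2 change light minus dark of the 894 genes called in co-cultured GFP cells (x axis) against that in wt monocultures (y axis), both from the fit of 24 libraries; blue marks the 387 genes whose light effects differ. Most points lie near 0 on the y axis whatever their x value, and WNT3, ID1, EOMES, TBXT, NPTX1 and IL17C lie far from the dashed line of equal effect. The genes were chosen by their change in the GFP libraries, not in wt monocultures.

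The engineered partners in the same wells gave the other comparison. In mCherry cells 27.2% of genes tested rose and 28.7% fell in light, and the light effect differed between mCherry and GFP cells for 40.5%. Of the 465 genes higher in GFP light, 286 (61.5%) also rose in mCherry cells, 114 (24.5%) fell there and 65 were not called. Of the 429 lower genes, 297 (69.2%) also fell in mCherry cells, 68 (15.9%) rose and 64 were not called. Seen from the other side, these shared genes were 5.41% of the genes that rose in mCherry cells and 5.33% of those that fell. All 114 and all 68 genes with opposite calls also differed between the cell kinds in the test of the difference, out of 337 and 296 that did so among the genes called higher and lower. Opposite calls in the same fit make that difference nearly certain, so this count adds no support.

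Genes with opposite calls included pathway members described above. GDF3 rose in GFP cells and fell in mCherry cells (log2 change -3.03), a difference of 5.00 (limma adjusted p = 2.4e-10). NODAL rose in GFP and fell in mCherry cells (-0.95, adjusted p = 0.0259), a difference of 2.48 (adjusted p = 0.000644). NANOG (-7.06 in mCherry) and CDH6 (-1.52) followed the same pattern. BMP2 (6.06), DLL1 (4.63) and DLL3 (5.73) rose in mCherry and fell in GFP cells, and for BMP2 the difference was -7.28 (adjusted p = 4.74e-11). ID1 rose in GFP cells and was not called in mCherry cells (0.75, adjusted p = 0.105), a difference of 2.29 (adjusted p = 0.00292). WNT3 rose in both, by 2.94 and 3.97, a difference of -1.03 (adjusted p = 0.000137).

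**Figure D5:**
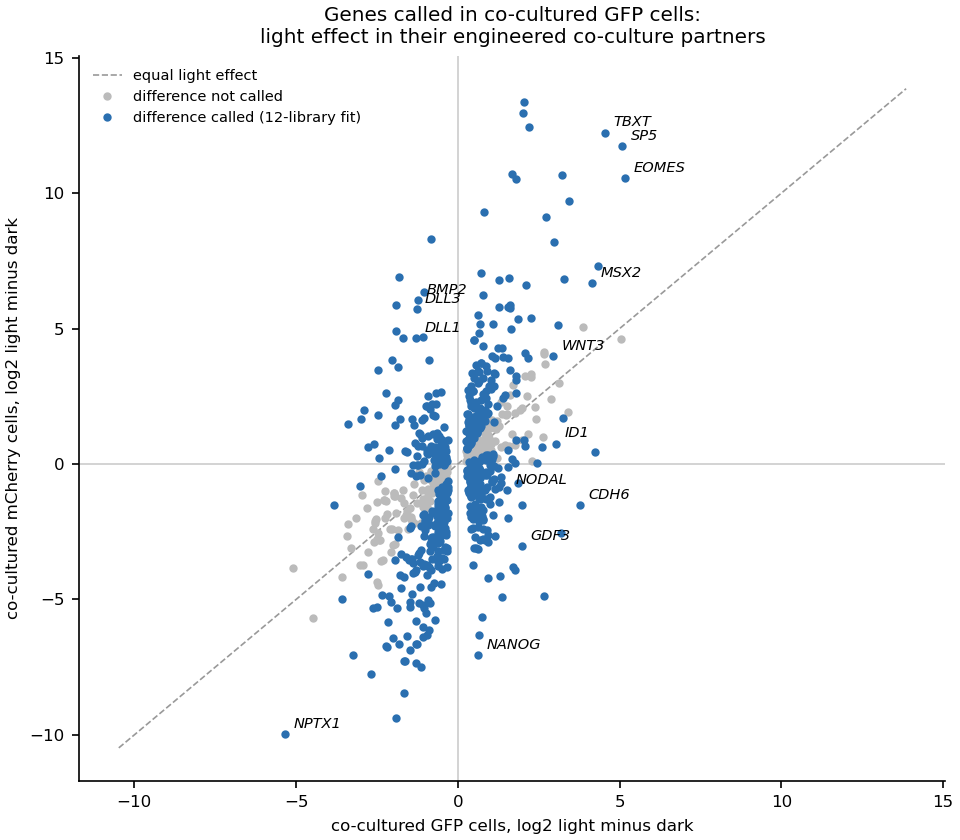
Log2 change light minus dark of the 894 genes called in GFP cells (x axis) against that in mCherry cells sorted from the same co-cultures (y axis); blue marks the 633 genes whose light effects differ. Points in the upper left and lower right quadrants are genes with opposite signs, BMP2, DLL1 and DLL3 in the first and GDF3, NODAL, NANOG and CDH6 in the second.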

How the data were processed

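Messenger RNA was sequenced with a stranded kit from 24 libraries in 8 groups of 3. Per the submitters' processing notes, FastQC, cutadapt, Bowtie2, STAR, HTSeq and DESeq were used; no version of these tools is stated. GRCh38 is the build in those notes, but the header of the authors' sample table names hg19 with 4 added construct features; this was not resolved. The deposited values of the authors are a normalised signal over 28301 features, 28297 of them Ensembl genes; multiplied by 1 factor per library, 100.0% of values are whole reads within 0.01. Genes were named by Ensembl identifier (28124 matched) and placed with GENCODE 29 on GRCh38; promoter sequences are from RefSeq (GRCh38.p14). Whether reads were counted by strand is unstated, which leaves antisense and overlapping genes uncertain. Depth ran from 28237578 to 56639833 assigned reads per library.

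The authors' sample table ties co-culture columns to a group and not to a replicate, so no pairing was used. For monocultures the titles were followed, since the genotype tags contradict them. From the deposited signal, log2(value + 1) was tested with limma-trend 3.58.1 in R 4.3.3, for genes at 10 or more in at least 3 libraries, with Benjamini-Hochberg adjustment and a threshold of 0.05. The 12 co-culture libraries were fitted together; comparisons with monocultures used all 24. Fold changes are ratios of group means, log2 changes understate those of weak genes, and no fold is given where a group had 3 or fewer reads. Alternatives were edgeR 4.0.16 and DESeq2 1.42.0 on the recovered reads, other pseudocounts, filters, scalings and sample sets; leaving out each mCherry library and subtracting engineered-cell RNA were chosen after seeing the data. The fits were tested on simulated data first. The named genes were the 12 largest changes in each direction with a mean of at least 50, up to 4 called members per direction of each list, a short set of pathway genes and the 5 largest differences from monoculture each way; others complete a list or are marked, and some genes that the rule names are not reported here. The genes, lists and comparison were chosen with earlier results of these data known.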

Additional observations from a re-analysis of the deposited data

Results flagged for a closer look

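Each result here stands out because a light effect differed between co-cultured GFP cells and another kind of cell in the test of that difference. Against wt monocultures, 287 genes had a higher and 180 a lower light effect in the GFP cells. WNT3 differed by 2.69 and ID1 by 2.55 (log2), with all 3 GFP light libraries above all GFP dark, wt light and wt dark libraries for both genes. Against the mCherry cells of the same wells, 114 genes rose in GFP cells and fell in mCherry cells, and 68 went the other way. All had differing light effects, which opposite calls in the same fit make nearly certain. Among these genes were NODAL, with a difference of 2.48, GDF3 with 5.00 and BMP2 with -7.28. The mCherry light libraries were uneven for these genes: NODAL stood at 252, 306 and 981 and ID1 at 2223, 2320 and 9459, with library c apart. No explanation for these differences was tested.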

How the results depend on the processing

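Under other pseudocounts, filters, TMM scaling, edgeR and a depth term, the counts of genes called in GFP light against dark stayed within 1.5 times those reported. DESeq2 called 728 higher and 741 lower, sharing 458 of the 465 and 411 of the 429 genes, and for the difference from wt monocultures 429 higher and 334 lower. The 6 GFP libraries alone gave 672 higher and 684 lower. Leaving out 1 library at a time, the mCherry libraries (added after seeing the data) included, gave 255 to 788 higher and 215 to 775 lower, and for the difference from wt monocultures 166 to 376 higher and 105 to 248 lower. The highest counts came without mCherry light a; without mCherry light c they were 554 and 565. Signs turned with engineered-cell RNA subtracted for APLNR (-4.19), DKK1 (-1.67), HOXB1 (-0.57), LEF1 (-0.38) and MSX1 (-2.41), and EVX1 and HOXB3 came to 0.00. That step takes off an upper limit, so the turned signs are not read as falls. AXIN2 came to 0.02 with a depth term and WNT3A ranged from -1.07 to 0.15 with 1 library left out, the latter without GFP light c; the cause was not tested. No paired analysis was possible because the co-culture columns carry a group but no replicate number. Levels of a few reads, such as those of WNT8A, HOXB1 and EVX1, are limited by depth.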

Other observations

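Further gene families moved in the GFP cells, and all of those given here were chosen after their values were seen, so their counts carry no test. Of 13 BMP and activin receptor and SMAD genes, 4 rose and none fell. BMPR1A, the main type 1 BMP receptor of these cells, stood at 6246, 5684 and 5924 normalised reads in light and at 3380, 3619 and 3595 in dark, 1.69-fold higher (limma adjusted p = 8.67e-05), while it fell in the mCherry cells (log2 change -1.01). BMPR2, ACVR1 and SMAD1 rose 1.62-fold, 1.37-fold and 1.29-fold, and 9 genes were not called. The ACVR1 call was lost without light b, dark a or dark c, and the SMAD1 call without any 1 GFP library (limma adjusted p up to 0.0698 and 0.17). Of the 10 Frizzled receptor genes, FZD1, FZD5, FZD8 and FZD10 rose 1.57-fold to 2.37-fold, FZD2 fell by 1.61-fold and 5 were not called. FZD5 stood at 6127, 5666 and 6234 against 4106, 3755 and 3607, and it fell in the mCherry cells (log2 change -6.32). The calls of FZD1, FZD2, FZD8 and FZD10 were each lost without 3 or 4 of the 6 GFP libraries.

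Genes of the hyaluronan matrix rose as well, 4 of 10 with none lower. HAS2, a hyaluronan synthase gene, rose 4.36-fold from 199, 193 and 231 to 967, 907 and 841, a rise of 3.27% of the mCherry light level. HAS3 rose 2.02-fold, the matrix proteoglycan gene VCAN 2.12-fold to 39552, 35643 and 33193, and the hyaluronan-degrading CEMIP2 1.57-fold. Both apelin receptor ligand genes fell: APLN by 2.17-fold from 515, 413 and 452 to 173, 238 and 225, and APELA by 2.14-fold from 1319, 2011 and 1895 to 917, 805 and 719. Of 13 tested genes for oxygen sensing and prolyl hydroxylation, 9 rose and none fell. SLC16A3, a lactate exporter gene, rose 4.97-fold (820, 762 and 1362 against 214, 159 and 219), the host gene MIR210HG rose 4-fold, and KDM3A and P4HA2 rose 1.78-fold and 1.79-fold. Among 29 semaphorin, plexin and neuropilin genes, 3 rose and none fell.

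Other single genes with clear gaps between the groups were LRIG1, VAT1L, PCDH10 and PEG10. LRIG1, which limits growth factor receptor signalling, fell by 2.78-fold from 10367, 9609 and 8869 to 3332, 3547 and 3480 (limma adjusted p = 4.48e-08). VAT1L rose 3.28-fold from 2967, 3122 and 2811 to 8872, 9915 and 10372 and fell in mCherry cells (log2 change -3.82). PCDH10, a protocadherin gene, rose 3.46-fold to 1100, 1181 and 1234, and the imprinted gene PEG10 rose 1.82-fold to 17981, 18616 and 19090.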
